A study of Homo sapiens with 4 samples.

Results

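FOXA2 binding sites on the gene-rich chromosomes 16, 17, 19 and 22 were examined in PC3 cells given vehicle or the LSD1 inhibitor GSK2879552. A site is a peak of chromatin immunoprecipitation followed by sequencing (ChIP-seq), in hg19 (GRCh37) coordinates. All peaks on these 4 chromosomes were taken, except those in chr16:32000000-47000000 and chr19:24000000-28500000, which hold pericentromeric repeats. This gave 1119 of 21308 peaks in the vehicle list (5.25%) and 797 of 14846 in the GSK2879552 list (5.37%), and no peak was removed by any further filter. The choice used position only, not any measured value.

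PC3 is an established androgen-independent prostate cancer cell line. Per the labels, treated cells received 50 µM GSK2879552 for 4 hours in medium with 5% charcoal-stripped serum; the vehicle samples carry the same protocol text, so their duration is not stated separately. Each group has 2 samples, which the labels call technical replicates and which differ in sequencing lane, and both name 1 common peak list. No spread between cultures can therefore be measured, no test between groups was made, and the 95% intervals given here cover counting error only. The sample descriptions speak of ATAC-seq, whereas titles and series name FOXA2 ChIP-seq, which was followed; binding was measured and expression was not.

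FOXA2 is a forkhead pioneer factor: it can bind its motif on nucleosomes and open compact chromatin, and it is best known from endoderm and from advanced prostate cancer. LSD1 (KDM1A), the target of GSK2879552, removes methyl groups from histone H3 and is also described as demethylating FOXA proteins. FOXA factors bind mainly at enhancers away from promoters, in AT-rich forkhead motifs, whereas gene-rich chromosomes are GC-rich and dense in promoters. In the RefSeq table (GRCh38.p14, used for names and chromosome only), chromosome 19 carried 250 of 517 protein-coding genes with a ZNF symbol, encoding zinc finger proteins, and 15 of 15 kallikrein (KLK) genes, which include androgen-regulated proteases of the prostate. Chromosome 17 carried 28 of 55 keratin (KRT) genes, encoding filament proteins of epithelia, 10 of 10 HOXB genes, encoding homeodomain factors that pattern the body axis, and 18 of 28 CC chemokine (CCL) genes. Chromosome 16 carried 9 of 10 metallothionein genes (MT1 and MT2), and chromosome 22 carried 8 of 8 APOBEC3 cytidine deaminase genes. No annotation of the files' build was used here, so sites are given by position and are not assigned to genes.

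These gene-rich chromosomes were poor in FOXA2 sites for their length. Together they held 19.6% of the protein-coding genes on the assembled chromosomes and 5.25% of vehicle peaks. Genes were counted over whole chromosomes, and peaks without the left-out stretches. The other chromosomes were taken whole and include Y. The vehicle list had 4.58 peaks per Mb on them, measured between the first and the last peak of each chromosome without the left-out stretches, and 7.30 per Mb on the other chromosomes. The density elsewhere was thus 1.59 times as high (95% interval 1.50 to 1.69), and in the GSK2879552 list it was 1.55 times as high. For every 100 genes there were 28.5 vehicle peaks on the 4 chromosomes and 123.7 on the others. On chromosomes 4, 13 and 18, which are known as gene-poor, there were 178.3. Peaks per 100 genes fall with gene density by construction, and gene density is what sets these groups of chromosomes apart. Per Mb, chromosomes 4, 13 and 18 had 6.77 vehicle peaks, fewer than the 7.30 of the other chromosomes, which include them.

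Among the 4, chromosome 17 stood apart. It carried 577 of the 1119 vehicle peaks, 51.6%, at 7.14 per Mb, close to the density of the other chromosomes. Chromosome 16 had 244 peaks at 3.25 per Mb, chromosome 19 had 183 at 3.38 and chromosome 22 had 115 at 3.35. With their left-out stretches counted, chromosomes 16, 19 and 22 held the lowest 3 densities of the 23 chromosomes other than Y, and chromosome 17 ranked 12. Chromosomes 19, 17 and 22 ranked 1 to 3 in genes per Mb, with 24.7, 14.5 and 13.2, whereas chromosome 16 ranked 5 with 9.48, after chromosome 11 with 9.71. Chromosome 16 was thus less dense in genes than the other three.

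**Figure D1:**
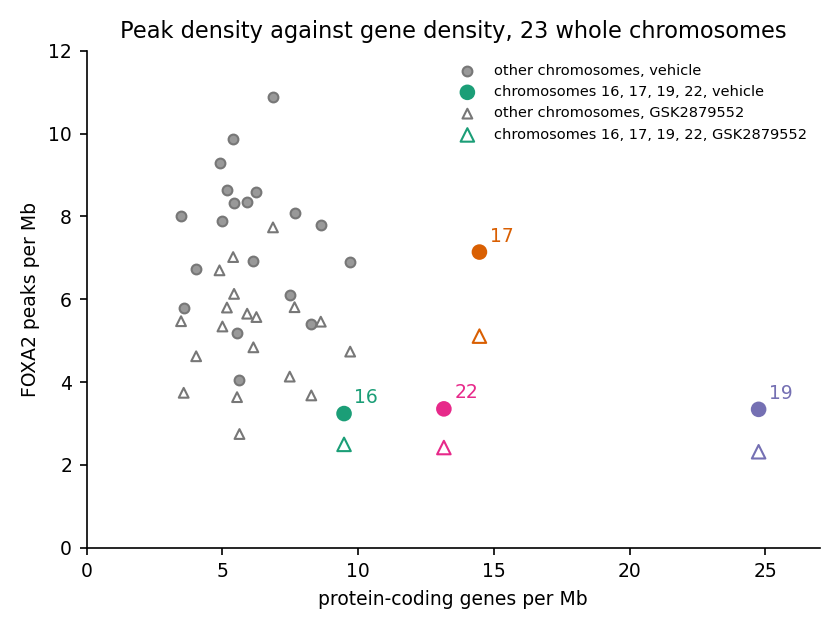
Protein-coding genes per Mb (x axis, RefSeq genes over the span of vehicle peaks) against FOXA2 peaks per Mb (y axis) for 23 whole chromosomes, with filled circles for vehicle and open triangles for GSK2879552; the coloured points are chromosomes 16, 17, 19 and 22, left-out stretches included. Chromosomes 16, 19 and 22 lie lowest, at 3.24 to 3.35 vehicle peaks per Mb, and chromosome 17 lies at 7.14.

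Over the 23 chromosomes, peak density in vehicle was related to gene density with Pearson's r = -0.50 and Spearman's rho = -0.40, and r was -0.36 without chromosome 19. With the median local background it had r = 0.70 and rho = 0.80. These are descriptions over chromosomes that share 1 library, and they carry no test. The local background is the number of fragments per position against which the peak caller set a summit, computed from the deposited fold and −log10 p; it cannot fall under the genome-wide floor of 1.08.

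The sites of chromosome 17 lay mostly in its last part. Split into 10-Mb blocks, the chromosome had 40, 31, 37 and 42 vehicle peaks in the blocks from 0 to 40 Mb and 79, 108, 140 and 94 in the blocks from 40 to 80 Mb. The stretch chr17:40000001-80000000 thus held 421 vehicle peaks, 73.0% of the chromosome and 37.6% of all 1119 sites. Its density was 10.5 per Mb against 3.82 in the remainder of the chromosome, 2.75 times as high (2.29 to 3.33), and in the GSK2879552 list the densities were 7.53 and 2.74. The stretch was delimited after its values were seen, as the 10-Mb blocks of chromosome 17 whose median background in vehicle was at least 2 fragments.

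The vehicle background was used to delimit the stretch, so its values there are a description. In vehicle the median was 2.38 fragments in the stretch and 1.17 in the remainder, a ratio of 2.03. In the GSK2879552 list, which was not used to delimit it, the medians were 2.52 and 1.23, a ratio of 2.05. Only 1 of 421 vehicle peaks in the stretch sat at the floor, against 55 of 156 in the remainder. Block medians in vehicle were 1.10 to 1.22 up to 40 Mb and 2.08 to 2.44 from 40 to 80 Mb. The share of background that comes from the FOXA2 sites themselves, and the copy number of this stretch, were not tested.

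**Figure D2:**
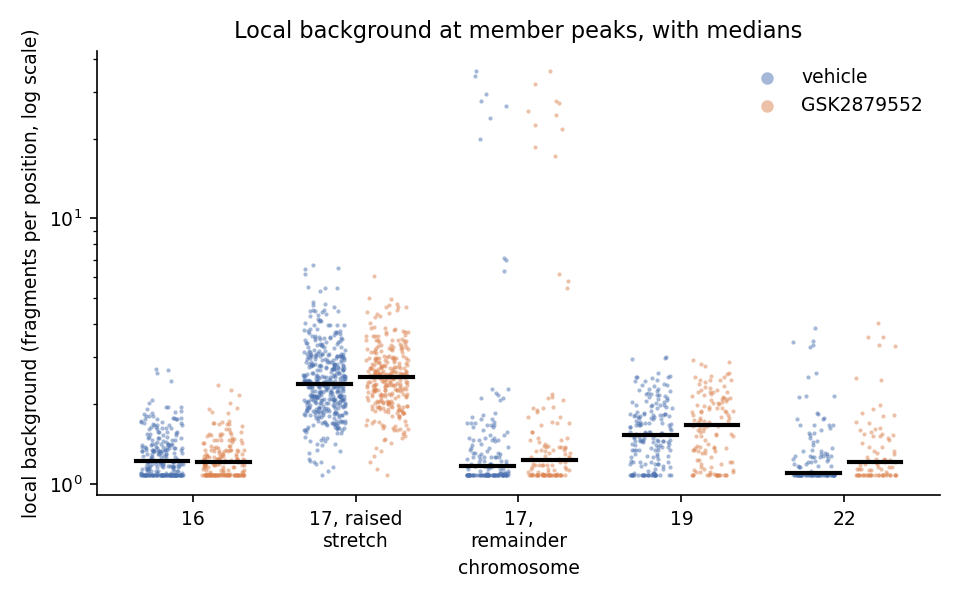
Local background at each member peak (y axis, fragments per position, log scale) by chromosome, with chromosome 17 divided into the stretch from 40 to 80 Mb and its remainder; blue points are vehicle, orange points GSK2879552, spread sideways for display, and black bars are medians. The stretch has medians of 2.38 and 2.52, above the 1.10 to 1.66 of the other groups, and the few points above 10 belong to 1 narrow region of chromosome 17.

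Chromosome 19 showed a smaller step in background, and peak numbers rose with it in some blocks but not in all. Its blocks from 0 to 10, 10 to 20 and 50 to 60 Mb had median backgrounds of 1.66, 1.75 and 1.79 with 47, 41 and 34 vehicle peaks. The blocks from 30 to 40 and 40 to 50 Mb had 1.21 and 1.13 with 19 and 38 peaks. Both blocks up to 20 Mb thus held more peaks than either of these, and the block from 50 to 60 Mb lay between them. Vehicle peaks end in chr19:58000001-59000000, so that block is cut short, and densities by block were not computed. On chromosome 22, 48 of 115 vehicle peaks were at the floor and the median was 1.10, the lowest of the 23 chromosomes.

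Sites on chromosomes 16 and 22 were weaker in fragments than those of chromosome 17. The number of fragments covering a summit, computed as a whole number from the deposited values, had a median of 21 (interquartile range 15 to 33) on chromosome 17 in vehicle. The medians were 16 (13 to 21) on chromosome 16, 17 (13 to 25) on chromosome 19 and 15 (12 to 20) on chromosome 22, and 18 (14 to 28) over all other peaks. Summits with 50 or more fragments numbered 60 on chromosome 17, 52 of them in the stretch from 40 to 80 Mb, and 2, 6 and 1 on chromosomes 16, 19 and 22. Together these were 6.17% of the sites, against 7.08% of the whole vehicle list. The share was 12.4% in that stretch and 2.44% on the 4 chromosomes outside it. Of the 1000 strongest vehicle peaks by −log10 p, 51 were on the 4 chromosomes, about their share of all vehicle peaks (5.25%). Of these, 41 were in that stretch, which held 421 of the 21308 vehicle peaks.

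Measured as fold over the local background, the 4 chromosomes were close to each other. The authors' median fold in the vehicle list was 7.69 on chromosome 16, 7.17 on chromosome 17, 7.23 on chromosome 19 and 7.30 on chromosome 22, and 7.03 over all other peaks. Within chromosome 17 it was 7.28 in the stretch and 6.99 in the remainder. Median widths in vehicle were 255, 267, 251 and 234 bp on chromosomes 16, 17, 19 and 22.

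After GSK2879552 fewer sites were called on each of the 4 chromosomes. Peaks went from 244 to 177 on chromosome 16, from 577 to 413 on chromosome 17, from 183 to 124 on chromosome 19 and from 115 to 83 on chromosome 22. The total was 28.8% lower, a ratio of 0.712 (0.650 to 0.781), and the ratio over all other peaks was 0.696 (0.681 to 0.711). The ratios of chromosomes 16, 17, 19 and 22 were 0.725, 0.716, 0.678 and 0.722, and their intervals all overlapped. The covered length went from 299.2 kb to 200.4 kb, a ratio of 0.670, with median widths of 257 and 238 bp. The stretch of chromosome 17 with raised background had a ratio of 0.715 and the remainder of that chromosome 0.718.

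Over the 4 chromosomes together, the share of sites without a counterpart was close to that of the whole lists. An overlap of at least 1 bp with the GSK2879552 list was found for 696 of 1119 vehicle peaks (62.2%, 59.3 to 65.0). The other 423 (37.8%) had none, where 38.0% of the whole vehicle list had none. In the other direction 699 of 797 GSK2879552 peaks (87.7%, 85.2 to 89.9) met the vehicle list. The remaining 98 (12.3%) did not, against 10.8% of that whole list. Chromosome 22 had the highest shares of unmatched peaks, 49 of 115 in vehicle and 17 of 83 in GSK2879552 (20.5%, so that 79.5% overlapped, 69.2 to 87.6). Unmatched vehicle peaks on the 4 chromosomes had a median of 14 fragments and matched ones 23. Unmatched GSK2879552 peaks had a median of 12 and matched ones 18.

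At equal strength no difference of vehicle peaks from the rest was detectable at this number of peaks. With the whole vehicle list ranked by −log10 p and divided into 10 bins, 24.2% of their peaks in the weakest bin and 47.4% in bin 5 overlapped a GSK2879552 peak. In the strongest bin 117 of 117 did (from 96.9%). For the other peaks these shares were 19.4%, 54.3% and 100%. The mean difference over the 10 bins was -0.49 percentage points (-2.93 to 1.95). Given their strength, peaks elsewhere would be overlapped at 701.3 of 1119, and 696 were. By chromosome these numbers were 148.2 and 153 on chromosome 16, 375.4 and 369 on chromosome 17, 111.5 and 108 on chromosome 19, and 66.2 and 66 on chromosome 22. For GSK2879552 peaks, ranked in the same way, the share overlapped was lower than elsewhere in each of the 5 weakest bins, with differences of -5.66 to -1.59 percentage points. The interval of each of these bins covered the share elsewhere, and a mean over the bins was not computed.

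**Figure D3:**
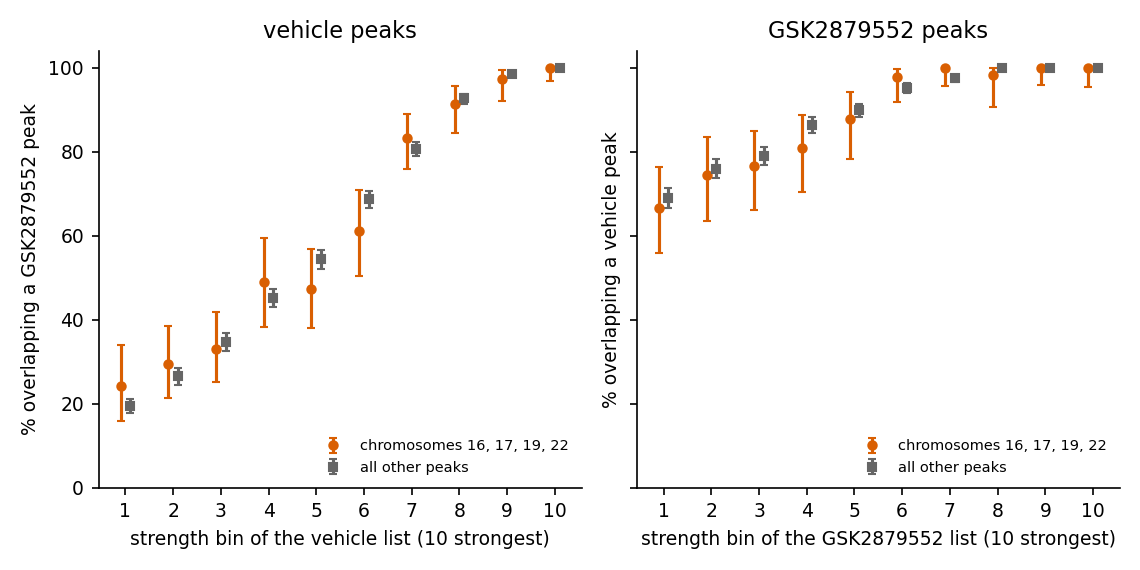
Percentage of peaks overlapping the other list (y axis) in 10 bins of strength (x axis), for vehicle peaks on the left and GSK2879552 peaks on the right; orange circles are chromosomes 16, 17, 19 and 22, grey squares all other peaks, and bars exact 95% binomial intervals. In the vehicle panel the orange points run from 24.2% to 100% and differ from the grey ones by -7.66 to 4.81 percentage points.

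Sites called in both lists carried fewer fragments after GSK2879552. Reduced to mutual best partners there were 696 pairs, with a median of 23 fragments (17 to 35) in vehicle and 18 (14 to 26) in GSK2879552. Fragments were lower at 554 pairs (79.6%), equal at 36 and higher at 106 (15.2%). Over all 13200 pairs, 78.0% were lower and 16.3% higher. The median log2 ratio, scaled by the background floors, was -0.32 (interquartile range -0.59 to -0.10, interval of the median -0.36 to -0.28), and the median of the other pairs was also -0.32. At least 2-fold lower were 33 pairs (4.74%), where 4.04% of all pairs were, and at least 2-fold higher was 1, where 0.0455% of all were.

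The median log2 ratio was -0.32 (interval -0.42 to -0.24) over 153 pairs on chromosome 16 and -0.33 (-0.39 to -0.28) over 369 on chromosome 17. It was -0.34 (-0.45 to -0.24) over 108 pairs on chromosome 19 and -0.22 (-0.34 to -0.11) over 66 on chromosome 22. On these chromosomes fragments were lower at 125, 297, 85 and 47 pairs. All 4 intervals overlapped, but the value of chromosome 22 lay outside those of the other three; the difference itself was not tested. With all pairs divided into 5 equal groups by fragments, the median was -0.21 in the weakest group, -0.37 to -0.38 in the groups between and -0.32 in the strongest, so it did not move in 1 direction with strength. Lower were 66.0% of 150 pairs in the weakest group and 90.5% of 137 in the strongest, against 64.7% and 88.7% of the other pairs.

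Paired sites were mostly narrower in the GSK2879552 list, at nearly the same summit. The GSK2879552 interval was narrower at 525 of 696 pairs (75.4%, where 9905 of all 13200 pairs were) and wider at 169, with a median difference of -31 bp, against -33 bp over the other pairs. The shortest interval of each list is 175 bp in vehicle and 168 bp in GSK2879552, and the part of that difference in the narrowing was not tested. Summits lay a median of 21 bp apart (9 to 41), and more than 100 bp apart at 25 of 696 pairs, against 565 of 13200 over both lists.

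**Figure D4:**
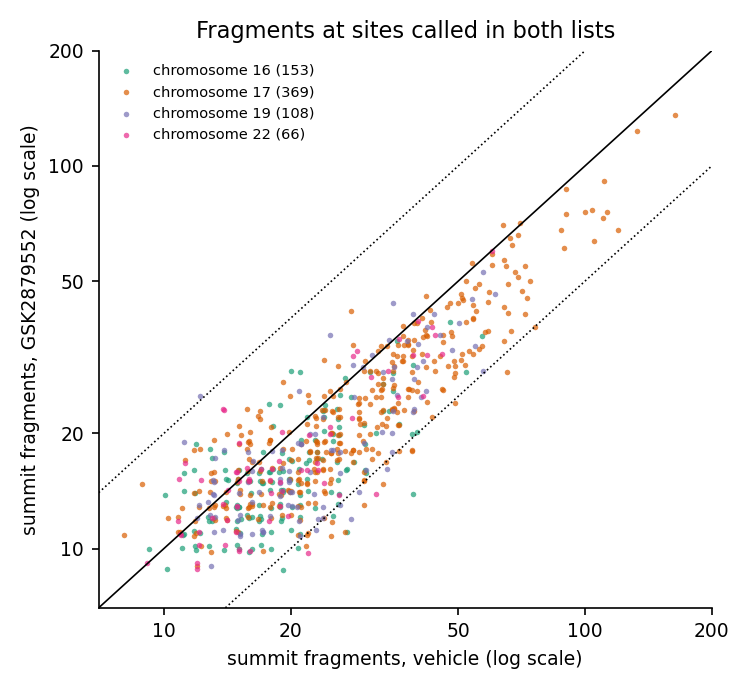
Fragments at the summit in vehicle (x axis) and GSK2879552 (y axis), both on log scales, for 696 sites called in both lists, coloured by chromosome and spread slightly for display; the solid line marks equality and the dotted lines a 2-fold difference. Most points (554 of 696) lie under the solid line, and those beyond 100 fragments are on chromosome 17.

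On chromosome 16, the strongest paired sites were at chr16:1128561-1128885, chr16:86624077-86624413 and chr16:2438844-2439201. Their vehicle fragments were 52, 57 and 48, and their GSK2879552 fragments 29, 36 and 39. All were lower after the inhibitor, by log2 ratios of -0.85, -0.67 and -0.30, and were ranked 559, 569 and 870 in the vehicle list. The strongest site without a counterpart was chr16:10678744-10679065 with 29 fragments. With the left-out part aside, it ended the longest stretch without a vehicle peak on the chromosome, 5.68 Mb after summit 4994750. The next, chr16:58511519-58511864, had 23 fragments, at 89803 bp from the closest summit of the GSK2879552 list. Among peaks found after GSK2879552 alone, chr16:53933042-53933220 had 16 fragments with a vehicle summit 4911 bp away, and chr16:1598354-1598552 had 14.

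Chromosome 16 also held the lowest ratio of the 4 chromosomes. At chr16:64926769-64927099 fragments went from 39 to 14, a log2 ratio of -1.48. At chr16:65843687-65843963 they went from 27 to 11, a log2 ratio of -1.30, which chr17:48030332-48030623 shared. The 10-Mb block from 60 to 70 Mb, in which both lie, had 50 vehicle and 31 GSK2879552 peaks, and 23 of the 50 were overlapped (46.0%, 31.8 to 60.7), where equally strong peaks elsewhere would give 28.7. In the block from 80 to 90 Mb, 26 of 32 were overlapped (81.3%, 63.6 to 92.8), against 21.5. Both intervals covered the shares at equal strength, 57.4% and 67.3%, and blocks were outside the rule for named sites. In the blocks from 50 to 60 and from 70 to 80 Mb, 13 and 15 were overlapped, against 12.3 and 16.3.

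The pericentromeric stretch of chromosome 16 would have moved its values. It held 48 vehicle and 48 GSK2879552 peaks, with a median background of 9.50 fragments in vehicle and a median log2 ratio of -0.06 over 43 pairs. With it, the ratio of peak numbers of chromosome 16 was 0.771 and the median log2 ratio -0.21, and without it 0.725 and -0.32. The 13 vehicle and 12 GSK2879552 peaks left out on chromosome 19 moved its ratio of peak numbers from 0.694 to 0.678.

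On chromosome 17, the strongest site of all 4 chromosomes was at chr17:59645925-59646316, rank 11 in the vehicle list. It had 163 fragments in vehicle and 136 in GSK2879552, with backgrounds of 6.48 and 6.06 and a summit shift of 3 bp. The next, chr17:75117910-75118261, went from 120 to 68, a log2 ratio of -0.82. The third, chr17:59433992-59434361, went from 113 to 76, a log2 ratio of -0.58. These 3 sites lie in the stretch with raised background, where fragment numbers and background are both high, and the third had the largest vehicle fold on the 4 chromosomes.

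The strongest unmatched vehicle peaks of chromosome 17, chr17:60188519-60188839 and chr17:55978740-55979010, had 35 and 34 fragments and lay in the same stretch, with GSK2879552 summits 113444 and 16997 bp away. The GSK2879552 peaks chr17:57949846-57950055 and chr17:39066201-39066425 had 20 and 16 fragments. Low ratios were found at chr17:48030332-48030623, with 27 fragments in vehicle and 11 in GSK2879552, and at chr17:42897927-42898209, with 30 and 13. A high ratio was found at chr17:19651717-19651906, with 9 and 15 fragments.

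Pairs in the stretch from 40 to 80 Mb of chromosome 17 had a median log2 ratio of -0.37 (interval -0.42 to -0.29, 278 pairs), and fragments were lower at 233. In the remainder it was -0.20 (-0.34 to -0.11, 91 pairs), and they were lower at 64. The difference of -0.18 had an interval of -0.30 to 0.05, from the ends of both intervals. It was -0.10 without positions whose background reached 25 fragments. Those positions lie within chr17:22245411-22261731, which held 7 vehicle peaks with backgrounds of up to 35.9 and 64 to 133 fragments. With the left-out stretches aside, they were the only vehicle peaks on the 4 chromosomes with a background of 10 or more.

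On chromosome 19, the strongest paired site had the lowest ratio among the 12 strongest sites named on the 4 chromosomes. At chr19:32864700-32865071 there were 57 fragments in vehicle and 29 in GSK2879552, a log2 ratio of -0.98. At chr19:56060714-56061040 there were 61 and 46, and at chr19:44272540-44272975 there were 57 and 53. Unmatched vehicle peaks at chr19:5974986-5975271 and chr19:5608290-5608593 had 26 and 32 fragments, the latter with a GSK2879552 summit 841 bp away. Unmatched GSK2879552 peaks at chr19:23548142-23548335 and chr19:7296236-7296466 had 20 and 18.

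Chromosome 19 had low and high ratios. At chr19:16390089-16390354 fragments went from 28 to 12. At chr19:54512005-54512195 they went from 12 to 25, a log2 ratio of 1.06 and the single pair on the 4 chromosomes that was at least 2-fold higher, with summits 146 bp apart. At chr19:6136908-6137155 they went from 11 to 19. The 3 highest ratios had 9 to 12 fragments in vehicle and belonged to the weakest of the 10 strength bins, where counting error is largest.

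On chromosome 22, 2 of the 3 strongest sites had nearly equal fragments in both lists. At chr22:16861506-16861826 there were 60 fragments in both lists, and at chr22:24902950-24903262 there were 40 in vehicle and 39 in GSK2879552. At chr22:21811437-21811763 there were 42 and 32. The first lies near the start of the sequenced long arm with a background of 3.41, against a chromosome median of 1.10, and the GSK2879552 peaks chr22:16850056-16850238 and chr22:16852141-16852355, with 21 and 22 fragments and vehicle summits 778 and 1323 bp away, lie close by. The uniqueness of read placement in this region was not tested. The strongest unmatched vehicle peaks, chr22:39103505-39103720 and chr22:36782214-36782470, had 20 fragments each.

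Of the 12 strongest sites together, 11 had fewer fragments after GSK2879552 and 1 had as many, with a median log2 ratio of -0.40. Since high vehicle values were used to pick them, a lower value in the second library was the likelier outcome.

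In 1-Mb windows, 213 windows of the 4 chromosomes held a vehicle peak, with a median of 4. GSK2879552 peaks were fewer in 146 windows, equal in 46 and more in 21, and in 17 windows no vehicle peak was overlapped. Windows with GSK2879552 peaks alone were not counted, which by construction favours fewer over more. A single vehicle peak was all that 33 of the 213 windows held. The windows of other chromosomes were not counted in this way, so these numbers have no comparison. Of the 29 windows with 10 or more vehicle peaks, 25 were on chromosome 17, 23 of them in the stretch from 40 to 80 Mb; 3 were on chromosome 16, 1 on chromosome 19 and none of the 30 on chromosome 22.

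The densest windows kept their sites to different degrees. In chr17:70000001-71000000 there were 24 vehicle and 22 GSK2879552 peaks, and 20 of the 24 were overlapped (83.3%, 62.6 to 95.3). Equally strong peaks elsewhere would give 16.5, and the interval covered that share, 68.6%. The 20 had 14 to 110 fragments in vehicle, and the 4 unmatched had 12 to 19. Within it, chr17:70514999-70515529 went from 110 to 73 fragments and chr17:70390623-70391039 from 65 to 29. At 18 of the 20 pairs fragments were lower, so this window kept its peaks with a median log2 ratio of -0.47.

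In chr17:46000001-47000000 most sites were not called after GSK2879552. There were 17 vehicle and 6 GSK2879552 peaks, and 6 of the 17 were overlapped (35.3%, 14.2 to 61.7), where equally strong peaks elsewhere would give 10.8. The 11 unmatched had 12 to 23 fragments and the 6 matched had 21 to 49. All 6 pairs were lower, among them chr17:46834194-46834528 with 49 and 28 fragments and chr17:46577999-46578267 with 30 and 15. The median background in this window was 2.31 in vehicle and 2.65 in GSK2879552, and in chr17:70000001-71000000 it was 2.92 and 2.70.

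Overlap in the other named windows was close to that of equally strong peaks elsewhere. In chr17:63000001-64000000, 13 of 18 vehicle peaks were overlapped, in chr17:59000001-60000000 10 of 17, and in chr17:53000001-54000000 11 of 16. Equally strong peaks elsewhere would give 12.1, 10.5 and 10.8. The window from 53 Mb was taken by position among 4 with 16 vehicle peaks. The others of these 4, chr17:57000001-58000000, chr17:62000001-63000000 and chr17:64000001-65000000, had 12, 10 and 15 overlapped, so that the last kept nearly all of its sites, with 17 GSK2879552 peaks. For these others the numbers at equal strength were not computed. Windows were named for their vehicle peak number, and neither their overlap nor their order was tested.

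**Figure D5:**
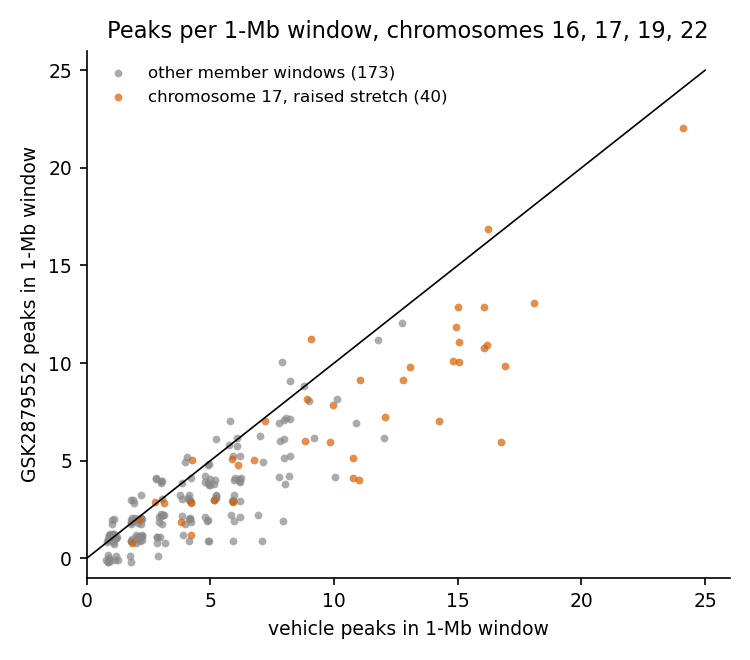
Vehicle peaks (x axis) against GSK2879552 peaks (y axis) in the 213 windows of 1 Mb that hold a vehicle peak on chromosomes 16, 17, 19 and 22, spread slightly for display; orange points are the stretch of chromosome 17 from 40 to 80 Mb, grey points all others, and the line marks equal numbers. The densest window has 24 and 22 peaks, and the window with 17 and 6 lies far under the line.

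Vehicle sites on these chromosomes had a close neighbour less often than those elsewhere. In vehicle, 278 of 1119 (24.8%, 22.3 to 27.5) had another summit within 10 kb, against 30.9% (30.2 to 31.5) of the other peaks. In the GSK2879552 list 175 of 797 had a neighbour, against 24.5% (23.8 to 25.2) of the other peaks, with intervals that overlapped, and chromosome 22 had 25.3%. The vehicle share was 29.8% on chromosome 17, 24.2% on chromosome 16, 17.4% on chromosome 22 and 14.8% on chromosome 19. In the dense stretch of chromosome 17 it was 30.9%, and 21.2% on the 4 chromosomes outside it; the part of density in this difference was not tested. The median distance to the nearest vehicle summit was 23.8 kb on chromosome 17 and 67.7 kb on chromosome 22. Sites with a neighbour were overlapped at 67.6% and isolated ones at 60.4%, against 65.1% and 60.6% of the other peaks. By chromosome the direction was not shared: these shares were 71.5% and 60.7% on chromosome 17 and 70.0% and 54.7% on chromosome 22, 62.7% for both on chromosome 16, and 51.9% and 60.3% on chromosome 19. Stretches of at least 1 Mb between neighbouring vehicle summits numbered 19, 9, 8 and 5 on chromosomes 16, 17, 19 and 22, without those that touch a left-out stretch.

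Promoter sequences of these chromosomes differ from others in base composition, apart from any peak. Over 5517 RefSeq promoters on the 4 chromosomes (GRCh38.p14, 250 bases before to 50 after the start), the median GC content was 62.7%, against 57.7% over 29599 others. The forkhead core TGTTTAC or TGTTTGC, searched on both strands, was in 275 of them (4.98%, 4.43 to 5.59) and in 7.57% of the others (7.28 to 7.88), or 7.17% of all 35116. The share was 3.65% on chromosome 19, 5.10% on chromosome 16, 5.24% on chromosome 22 and 6.35% on chromosome 17. These promoters could not be set against the peaks, whose build differs, and a match is not a bound site. The sequences under the peaks were not used here.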

How the data were processed

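The submitters' processing notes name hg19 (GRCh37), MACS2 2.1.2, BWA 0.7.2 and SAMtools 0.1.18. The options, the threshold and whether a control library or duplicate filter was used were not given in the sources used here. Each deposited list covers both lanes of its group. The deposited fold enrichment is a ratio of summit fragments to local background, each with 1 added; the deposited −log10 p and −log10 q are the peak caller's, and the deposited score is a whole-number form of the −log10 q. These authors' values served to rank and filter peaks within a list. Positions in the text count from 1.

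Summit fragments were sought as the whole number under 1500 whose Poisson upper tail gave the deposited −log10 p; 100% of peaks matched within 0.001. On simulated summits, 100% of 500 vehicle and 100% of 500 GSK2879552 values were recovered. Overlap (1 bp) was checked with bedtools 2.31.1. Fragment ratios were divided by the ratio of background floors, 1.00. With a background made from the library itself, which no source states, the floors correspond to 6.17 (vehicle) and 6.44 (GSK2879552) reads per kb. Shares carry exact (Clopper-Pearson) intervals, ratios of counts exact binomial ones and medians order-statistic ones; that of the mean difference over bins is a normal approximation. Peaks share chromosomes and are not independent, so all intervals are too narrow for more than counting error.

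Named sites are, per chromosome, the 3 pairs and, from each list, the 2 unmatched peaks of highest −log10 p; over all 4, the 5 lowest and 3 highest ratios with backgrounds under 25; and the 5 windows with most vehicle peaks, ties by position. Sites named inside windows were chosen after their values were seen. The members and lists were chosen with earlier results of these data known. Results by gene location or peak sequence were not run, for want of the files' build.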

Additional observations from a re-analysis of the deposited data

How the results depend on the processing

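Of 91 alternatives over 10 results, 77 stayed within the interval of the reported value, 14 moved beyond it and 0 changed the direction of a value whose interval excluded no difference. With peaks under a −log10 q of 5 dropped from both, the overlapped share of vehicle peaks was 59.1%, and a fold of at least 5 gave 58.9%. At a −log10 q of at least 10 the ratio of peak numbers was 0.587, the ratio of covered length 0.565, and the overlapped shares 54.0% of vehicle and 92.0% of GSK2879552 peaks; stricter limits by construction leave fewer peaks. Summits within 100 bp gave 84.2% of GSK2879552 peaks. Without the stretch of chromosome 17 with raised background, chosen after seeing the data, 84.5% of GSK2879552 peaks were overlapped, 21.2% of vehicle summits had another within 10 kb, and density elsewhere was 2.14 times that of the gene-rich chromosomes. The share of vehicle summits with a neighbour was 14.3% at 5 kb, 42.7% at 25 kb and 27.6% with the pericentromeric stretches kept in. At a −log10 q of at least 10, the stretch of chromosome 17 had 3.59 times the density of its remainder, a setting chosen after seeing the data. Where construction does not show it, the cause was not tested. The median log2 fragment ratio ran from -0.35 to -0.28 over 13 alternatives. The difference at equal strength ran from -2.05 to 1.28 percentage points over 14, on both sides of 0. No paired analysis was possible because the lanes of a group were merged in 1 list; for the same reason no lane was left out. Alternatives for transcription starts and motifs at peaks were not run.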
